A study of Mus musculus with 60 samples.

Results

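RNA of control (Ctrl) mouse embryonic stem cells (mESCs) at 12 h of retinoic acid (RA) was set against RNA of Ctrl cells at 24 h of RA, to ask which genes and repeats moved within the second 12 h of their exit from naive pluripotency. The libraries were taken by their labels, as the 3 Ctrl libraries at T12 and the 3 at T24, which together are 6 of the 60 libraries of the study. Ctrl cells were POLE4-dTAG mESCs of the E14JU line (129/Ola background), in which POLE4, a small subunit of the leading strand DNA polymerase, carries a degron tag. They were 1 edited clone, grown on gelatin in serum with LIF, a cytokine that sustains the naive state, and they received DMSO for 24 h instead of the degrader dTAG. The medium was then replaced by one with RA and without LIF, so that the effects of gaining RA and of losing LIF cannot be told apart. Ctrl cells before RA (T0) and at 60 h of RA (T60) are used below to place the interval. Libraries at T12 and T24 of other cells are used for comparison. These are dPOLE4 cells, the same clone depleted of POLE4 by dTAG, and MCM2-2A cells, 1 further clone that carries the same tag, received DMSO, and has MCM2 with changed residues that impair its histone binding. Each group had 3 biological replicates, and all groups were E14JU cells on gelatin, moved to the same RA medium. The general treatment text of the labels lists other collection hours than the sample labels do, and the hours given here are those of the sample labels.

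RA enters the cell, is held by binding proteins such as CRABP2, and binds receptors (RAR) that sit with RXR partners on paired copies of a short hexamer. Targets that respond early include the Hox genes, which lie in clusters and pattern the body axis, and enzymes such as CYP26A1 that degrade RA itself. Naive mESCs are held by a network of transcription factors (NANOG, ESRRB, TFCP2L1 and others), and loss of LIF together with RA takes cells out of that state towards neural, mesodermal or endodermal fates.

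Between 12 and 24 h, 700 of 18679 tested genes and repeat subfamilies (together called features) rose and 602 fell, which is 3.75% and 3.22% of the features tested (6.97% in either direction). The counts of rises and falls in each list below are to be set beside these shares. A feature counts as changed when edgeR's quasi-likelihood test gave a Benjamini-Hochberg adjusted p below 0.01 and a log2 fold change larger in size than 0.58, and every adjusted p given here for a gene or repeat is from that test. Of the features that rose, 694 were genes and 6 repeat subfamilies, and 637 were protein coding. Of those that fell, 593 were genes, 9 were repeat subfamilies and 458 were protein coding. Most changes were moderate, since 304 features rose and 262 fell by more than 2-fold, and 62 rose and 43 fell by more than 4-fold. The T12 and T24 libraries did not overlap for any of the changed features, and they did not overlap for 41.7% of all features tested. Separation of the groups thus came with the call. Where it is given below for a changed gene, it is a description that adds no support. The plot of change against level shows both arms over the whole range of levels, with Hoxc6 and Hoxb8 high among the rises and Grm2 and Inhbb low among the falls.

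**Figure D1:**
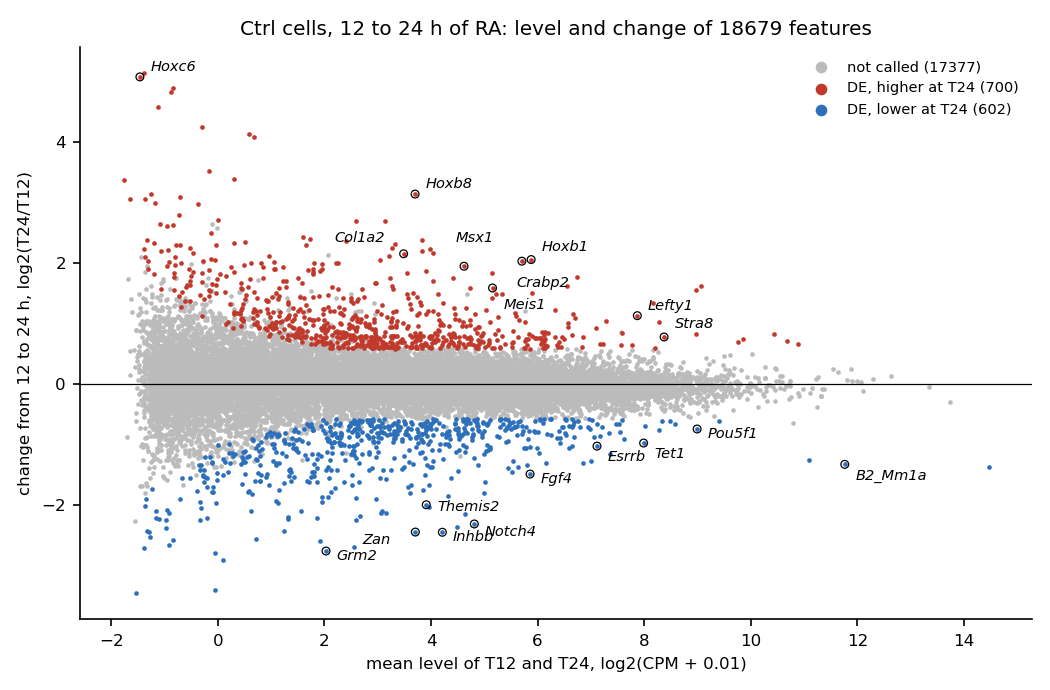
Each point is 1 of 18679 features, with its mean level at T12 and T24 on the x axis (log2 of CPM plus 0.01) and its log2 fold change from T12 to T24 in Ctrl cells on the y axis. Features that rose (700) and fell (602) are coloured, and the median of all features lies at 0.0078.

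Total counts lay between 16873575 and 29980256 per library at T12 and between 19901789 and 29229306 at T24, and between 10461077 and 46609151 over the 48 libraries of the RA experiment. No pair of replicates came close to sampling noise, with chi-square per degree of freedom of 5.04 or more. The second T12 library stood slightly apart, at 15.7 and 19.01 against its partners, which were at 6.39 to each other, and results that rest on it are given without it. Pole4 RNA measured 57.7, 55.4 and 57.3 CPM at T12 and 41.05, 43.2 and 45.7 CPM at T24, so the tagged gene was expressed in every Ctrl library. Its log2 change of -0.39 ± 0.06 (SE, adjusted p = 0.000891) was smaller in size than the fold threshold. dTAG acts on the protein, so this RNA does not check the DMSO label. All levels below are CPM (counts scaled to library size, with TMM factors over the 12 Ctrl libraries), which do not allow one gene to be compared with another, and values after "rose by" or "fell by" are log2 fold changes from T12 to T24 with their standard error (SE).

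Several genes listed under RA metabolism and transport rose further in this interval, whereas the RA receptors split. Of the listed genes for enzymes that degrade RA, only Cyp26b1 was called. Among 13 tested genes of RA metabolism and transport (of 14 listed), 6 rose and 0 fell, with a median log2 change of 0.55, against 3.75% of all features that rose and a median over all features of 0.0078. Crabp2, which carries RA within the cell, measured 18, 23.6 and 20.7 CPM at T12 and 76.6, 87.6 and 86.5 CPM at T24. All T24 libraries lay far above all T12 libraries, a log2 change of 2.02 ± 0.095 (SE, adjusted p = 5.15e-07). Stra6, a membrane receptor for the retinol carrier, measured 27.8, 32.4 and 31.7 CPM and then 68.6, 68.2 and 61.4 CPM. Its groups were likewise apart, with a log2 change of 1.12 ± 0.075 (SE, adjusted p = 3.53e-06). Dhrs3, which reduces retinaldehyde back to retinol, rose by 0.86 ± 0.063 (SE, adjusted p = 6.28e-06) on the log2 scale. Stra8, counted in this list though known as an RA-responsive gene of germ cells, rose from 246 to 418 mean CPM, by 0.77 ± 0.066 (SE, adjusted p = 1.66e-05). Cyp26b1, which degrades RA, measured 9.45, 15.01 and 14.02 CPM at T12 and 17.3, 21.4 and 24.7 CPM at T24. The first T12 library lay below the other libraries of its group, and the log2 change of 0.74 ± 0.17 (SE, adjusted p = 0.00841) lost its call without that library (0.53, adjusted p = 0.0281), without the third at T12 (0.82, 0.0101), and without the second (0.73, 0.0294) or the third at T24 (0.62, 0.038).

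Cyp26a1, the main RA-degrading enzyme of early embryos, had already reached its level at 12 h. It measured 2.899, 3.31 and 3.23 CPM at T0, 163, 211 and 183 CPM at T12 and 168, 189.7 and 182 CPM at T24. The T12 and T24 libraries overlapped, with a log2 change of -0.039 ± 0.085 (SE, adjusted p = 0.777), after a log2 change of 5.89 in the first 12 h, which shares the T12 libraries. The difference between the changes of the 2 intervals was -5.903 ± 0.16 (SE, adjusted p = 3.02e-11). Of the 6 receptors, Rarb rose, Rarg fell and the other 4 did not pass the test. Rarb, the receptor gene that RA itself induces, measured 10.3, 12.4 and 12.2 CPM at T12 and 16.97, 20.98 and 21.6 CPM at T24, a log2 change of 0.78 ± 0.11 (SE, adjusted p = 0.000588) with no overlap. Rarg, a receptor gene expressed already before RA, went the other way, from 184, 193 and 175 CPM to 121, 113 and 101.3 CPM. Its log2 change of -0.71 ± 0.069 (SE, adjusted p = 3.74e-05) was followed by a log2 change of -1.77 from 24 to 60 h, which shares the T24 libraries. Rara measured 138, 160.3 and 141 CPM and then 132, 136 and 131 CPM, and Rxrb 61.3, 72.5 and 60.4 and then 60.4, 65.9 and 61.4.

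The sequences of the paired hexamers are shown because Rarb and Cyp26a1, with their different courses after 12 h, both hold one at the start site. Promoter windows of 300 bases (250 before to 50 after the start, RefSeq, GRCm38.p6) were searched on both strands for direct repeats of the hexamer AGGTCA or of its variants AGTTCA and GGGTCA, with GGTTCA as a further variant, and with 5 bases (DR5) or 2 bases (DR2) between them. The hexamers are in capitals, and each stretch is read 5′ to 3′ on the strand of its gene. The Rarb stretch lies at chr14:16575483-16575559 (gene on the minus strand, 83 to 7 bases before the start) and the Cyp26a1 stretch at chr19:37697746-37697822 (plus strand, from 62 bases before to 14 after the start, with the repeat on the opposite strand).
Rarb: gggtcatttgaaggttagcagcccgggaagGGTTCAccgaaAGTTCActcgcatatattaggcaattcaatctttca
Cyp26a1: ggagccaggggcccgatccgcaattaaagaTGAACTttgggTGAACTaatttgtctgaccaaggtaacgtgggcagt
A DR5 was found in 31 of the 27025 genes with a window (0.115%). Of the 17785 tested genes only 11888 had a window, as did 482 of the 694 genes that rose and 377 of the 593 that fell. The others were not searched. Among those with a window, a DR5 was found in 8 tested genes (0.067%), in 1 gene that rose (Rarb, 0.207%) and in 0 that fell. Besides Rarb and Cyp26a1, the tested genes with a DR5 were Blvrb, Gm1043, Gm4631, Ppbp, Prokr2 and Syndig1, and none of them changed. A DR2 was found in 84 of the 27025 genes with a window (0.311%) and in 15 of the 11888 tested ones (0.126%). It was found in 1 of the 482 that rose (0.207%) and in 1 of the 377 that fell (0.265%). The last 2 are shown for their opposite courses. They are Slc25a21, a mitochondrial oxodicarboxylate carrier (chr12:57197553-57197626, minus strand), and Ano1, a calcium-activated chloride channel (chr7:144738602-144738675, minus strand), both with the repeat on the opposite strand.
Slc25a21: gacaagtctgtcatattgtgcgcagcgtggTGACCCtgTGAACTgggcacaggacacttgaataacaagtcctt
Ano1: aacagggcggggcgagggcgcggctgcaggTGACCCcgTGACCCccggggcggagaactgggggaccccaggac
Slc25a21 had 1, 7 and 5 counts at T12 and 70, 55 and 48 at T24, and the ratio of its summed counts per depth was 11.4 (95% interval 6.48 to 21.8, counting error only). Ano1, named after its value was seen, fell by 0.91 on the log2 scale. A match of letters is no evidence that a receptor was bound there.

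Hox genes were the list with the largest share of changed members among the 31 lists, all of them upwards. Of 39 listed Hox cluster genes 29 were tested, and 20 rose and 0 fell, with a median log2 change of 1.42. By position within the clusters, 9 of 10 tested genes of paralogue groups 1 to 4 rose (median 1.30), as did 11 of 14 of groups 5 to 9 (median 1.81), and 0 of 5 of groups 10 to 13 (median -0.39, with 2 at an unadjusted p below 0.05). By cluster, 6 of 10 tested Hoxa, 9 of 10 Hoxb, 4 of 5 Hoxc and 1 of 4 Hoxd genes rose. Single Hox genes other than Hoxa10, Hoxb6, Hoxb8, Hoxb9, Hoxb13, Hoxc5, Hoxc6 and Hoxc8 are named after their values were seen.

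Hoxb8, which acts in the trunk, measured 2.495, 2.59 and 2.95 CPM at T12 and 23.1, 22.9 and 23.9 CPM at T24. It was near 0.122 CPM at T0, and its log2 change of 3.13 ± 0.10 (SE, adjusted p = 5.57e-08) was the largest of any tested Hox gene after Hoxc5, Hoxc6 and Hoxc8, which had few counts at T12. Hoxb6, a neighbour in the cluster, measured 2.03, 2.83 and 2.28 CPM and then 12.4, 16.01 and 16.9 CPM, a rise of 2.69 ± 0.16 (SE, adjusted p = 2.05e-06). Hoxb9, further towards the posterior end, rose by 2.38 ± 0.088 (SE, adjusted p = 1.08e-07), from 4.69, 4.76 and 4.29 CPM to 24.3, 23.9 and 23.2 CPM. At the other end of the cluster Hoxb1, a hindbrain gene, measured 21.7, 25.2 and 22.1 CPM and then 91.1, 101.4 and 91.5 CPM, a rise of 2.05 ± 0.074 (SE, adjusted p = 1.08e-07).

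Between these times, reads of Hoxc5, Hoxc6 and Hoxc8 came almost only from the T24 libraries. Hoxc5 had 4, 2 and 4 counts in the T12 libraries and 70, 86 and 63 in the T24 libraries, a ratio per depth of 18.7 (95% interval 9.98 to 39.6). Hoxc6 had 1, 0 and 0 and then 18, 20 and 16 counts (ratio 46.1, 7.94 to 1856), and Hoxc8 had 0, 0 and 2 and then 34, 25 and 22 (ratio 34.6, 9.28 to 291). With 1 and 2 counts in all at T12, the last ratios are known only within these wide counting intervals. They passed the filter on low counts through their T24 libraries, and the separation of the groups adds nothing to that. The antisense transcript Hoxb5os had 4, 1 and 0 counts and then 61, 30 and 32 (ratio 21, 8.77 to 65.9). The strand setting of the authors' counting is not given in the sources used here, so its reads cannot be told apart from those of the genes that it overlaps. Of the posterior genes, Hoxb13 measured 3.63, 4.88 and 3.12 CPM and then 2.800, 1.74 and 2.48 CPM (log2 change -0.71 ± 0.22, adjusted p = 0.0353), and Hoxa10 measured 2.29, 2.83 and 2.62 and then 3.23, 2.35 and 3.26 CPM, with overlapping groups. The plot of Hox genes by cluster and paralogue group shows these changes side by side.

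**Figure D2:**
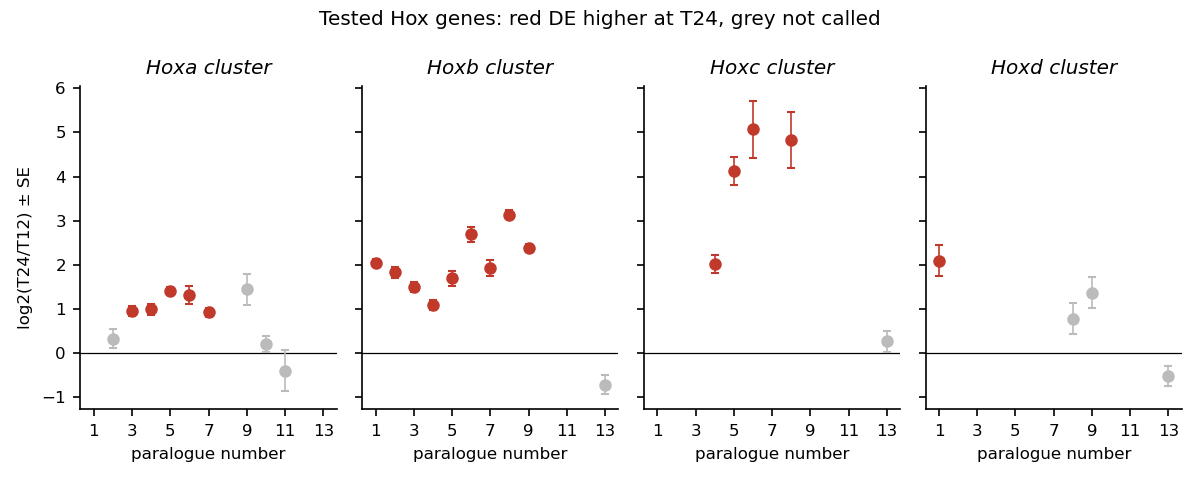
Log2 fold change from T12 to T24 in Ctrl cells (y axis, with its standard error as bars) of the tested Hox genes, 1 of them left out, by paralogue number (x axis), with 1 panel for each of the clusters a to d. The genes that rose (red) all lie in paralogue groups 1 to 9, and the Hoxc genes reach highest.

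The TALE homeobox genes encode partners with which HOX proteins bind DNA, and 4 of the 10 rose while 0 fell. Meis1 measured 16.97, 16.8 and 19.9 CPM at T12 and 50.7, 51.1 and 58.1 CPM at T24. The groups of libraries were far apart, with a log2 change of 1.58 ± 0.086 (SE, adjusted p = 8.95e-07). Pknox2 rose by 1.31 ± 0.13 (SE, adjusted p = 5.18e-05) and Meis2 by 1.02 ± 0.061 (SE, adjusted p = 1.88e-06). Pbx2, which had changed by 1.25 on the log2 scale in the first 12 h, stayed at 124, 145 and 126 CPM at T12 and 127, 140.3 and 131 CPM at T24 with overlapping groups.

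Pluripotency genes fell, though unevenly. Of 12 naive transcription factors 7 fell and 0 rose (median log2 change -0.64), and of 14 core and general pluripotency genes 7 fell and 0 rose (median -0.61), against 3.22% of all features that fell. Nr0b1, a nuclear receptor of the naive network, measured 33.9, 34.7 and 31.4 CPM at T12 and 13.01, 11.3 and 12.2 CPM at T24. Every T24 library was well below every T12 library, a log2 change of -1.45 ± 0.08 (SE, adjusted p = 1.03e-06). Esrrb, an orphan receptor that sustains self-renewal, went from 192, 191 and 176 CPM to 99.7, 86.8 and 85.7 CPM. Its log2 change of -1.03 ± 0.068 (SE, adjusted p = 3.41e-06) followed a log2 change of -1.22 in the first 12 h and came before one of -2.603 from 24 to 60 h. Prdm14, which keeps DNA methylation low in naive cells, fell by 1.16 ± 0.14 (SE, adjusted p = 0.000185). Zfp42, a classical marker of the naive state, fell by 0.92 ± 0.069 (SE, adjusted p = 7.38e-06) and Tfcp2l1 fell by 0.66 ± 0.064 (SE, adjusted p = 4.02e-05). Nr5a2, a nuclear receptor that binds the Pou5f1 gene, had a log2 change of -0.87 ± 0.077 (SE, adjusted p = 2.17e-05).

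Nanog, a central factor of the network, measured 226, 216 and 232 CPM at T12 and 184, 149 and 141 CPM at T24. The groups did not overlap, but its log2 change of -0.50 ± 0.087 (SE, adjusted p = 0.00186) was smaller in size than the fold threshold, and it passed only without the first T24 library (-0.63, adjusted p = 0.000214). Tbx3, another factor that supports self-renewal, was not lower, at 264, 271 and 269.9 and then 301, 290.4 and 293 CPM. Among the core genes, Fgf4, the FGF ligand made by mESCs, fell most among those named, from 84.2, 88.1 and 85.1 CPM to 35.3, 28.3 and 27.02 CPM. That is a log2 change of -1.496 ± 0.09 (SE, adjusted p = 1.96e-06) with no overlap. Pou5f1 measured 621, 716 and 584 CPM and then 399, 380.2 and 359 CPM, and Sox2, the partner of its protein, 228, 261 and 223 and then 134, 140.3 and 135 CPM. Pou5f1 fell by 0.75 ± 0.075 (SE, adjusted p = 4.72e-05) and Sox2 fell by 0.79 ± 0.064 (SE, adjusted p = 1.16e-05). Tdgf1, a co-receptor for Nodal, fell by 1.07 ± 0.10 (SE, adjusted p = 2.97e-05) and Dppa3, a maternal factor that guards methylation, fell by 0.91 ± 0.15 (SE, adjusted p = 0.00126). Sall4 measured 623 and then 546 mean CPM (log2 change -0.19 ± 0.049, adjusted p = 0.0165), and Dppa5a, whose reads may be shared with near-identical copies, 661 and then 725 (0.14 ± 0.063, adjusted p = 0.138). The plot of levels over time sets these courses beside those of the RA and Hox genes.

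**Figure D3:**
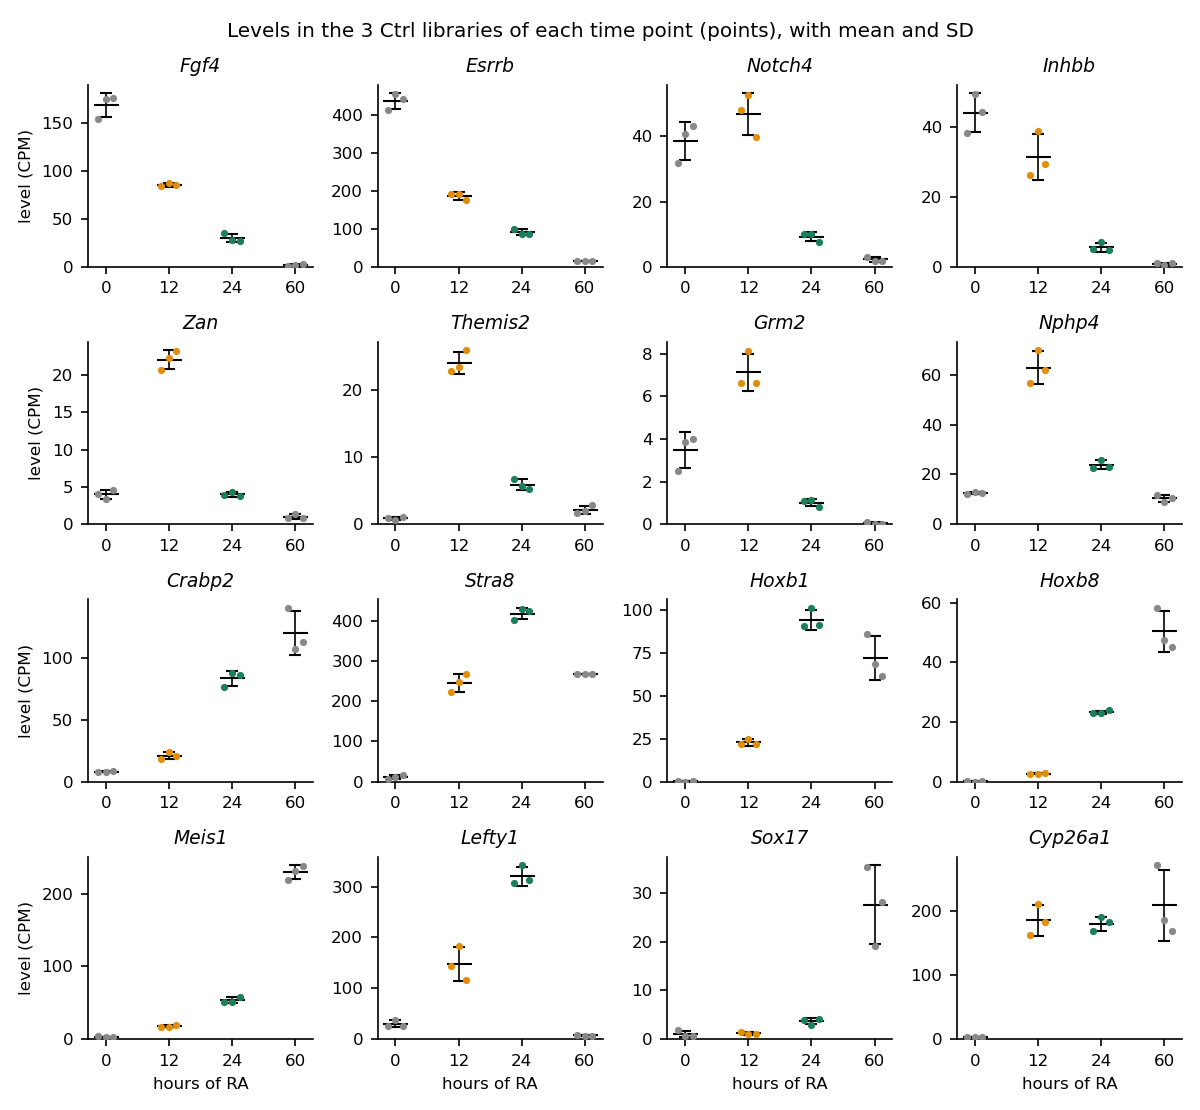
Level (CPM, y axis) of 16 genes in each of the 12 Ctrl libraries against hours of RA (0, 12, 24 and 60, x axis), with the mean and SD of the 3 libraries of each time. Cyp26a1 overlaps between 12 and 24 h, Hoxb8 and Meis1 climb at each step, Esrrb and Fgf4 decline at each step, and Themis2, Zan and Nphp4 peak at 12 h.

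Formative genes mark the stage between naive and primed cells, and they split. Of 11 tested (of 12 listed), 2 rose and 2 fell, with a median log2 change of 0.00069. Zic5 measured 65.4, 78.99 and 77.3 CPM at T12 and 36.6, 41.3 and 38.7 CPM at T24 and fell by 0.92 ± 0.08 (SE, adjusted p = 1.90e-05). Otx2, the factor that opens formative enhancers, fell by 0.90 ± 0.15 (SE, adjusted p = 0.00158) from a mean of 5.36 CPM. Sall2 rose by 0.65 ± 0.08 (SE, adjusted p = 0.000194), and Sox4 by 0.60 ± 0.063 (SE, adjusted p = 7.30e-05), a value that dropped under the fold threshold without the first T12 library (0.56), the third (0.57) or the third at T24 (0.57). Krt18 and Dnmt3b did not pass, with log2 changes of 0.35 ± 0.08 (SE, adjusted p = 0.00929) and -0.39 ± 0.059 (SE, adjusted p = 0.000825). Of 9 tested LIF and STAT3 pathway genes (of 10) 1 fell, Lifr, which encodes the LIF receptor. Lifr measured 77.9, 66.3 and 90.2 CPM and then 36.5, 36.99 and 39.8 CPM, a log2 change of -1.05 ± 0.10 (SE, adjusted p = 2.88e-05), and at T60 its level was 138, 143 and 154 CPM. Il6st, its co-receptor, and Pim1, a STAT3 target, had log2 changes of 0.15 ± 0.049 (SE, adjusted p = 0.0462) and -0.11 ± 0.069 (SE, adjusted p = 0.295). Without the third T12 library 2 members of this list passed in place of 1.

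The genes that fell most encode proteins of several kinds and noncoding RNAs. Inhbb, an activin subunit, measured 26.2, 38.8 and 29.3 CPM at T12 and 4.97, 7.08 and 4.82 CPM at T24. Its log2 change was -2.46 ± 0.17 (SE, adjusted p = 4.62e-06). Notch4, a Notch receptor, went from 48.1, 52.6 and 39.9 CPM to 10.1, 10.03 and 7.74 CPM, a log2 change of -2.32 ± 0.12 (SE, adjusted p = 8.62e-07). Nphs1, which encodes nephrin, measured 36.3, 43.8 and 33.1 CPM and then 8.302, 7.65 and 5.404 CPM. It fell by 2.38 ± 0.14 (SE, adjusted p = 1.96e-06), and the neighbouring nephrin-like gene Kirrel2 fell by 2.69 ± 0.23 (SE, adjusted p = 1.54e-05), while the antisense transcript Nphs1os, whose reads cannot be told apart from those of Nphs1, fell by 2.43 ± 0.20 (SE, adjusted p = 1.27e-05). These 3 genes lie together at chr7:30447534-30457690 (Kirrel2, minus strand), chr7:30458315-30487223 (Nphs1, plus strand) and chr7:30462164-30465591 (Nphs1os, minus strand) in mm10. Platr30, a noncoding RNA, had 76, 32 and 21 counts at T12 and 13, 6 and 1 at T24, and its ratio per depth was 0.133 (95% counting interval 0.0783 to 0.213). Its libraries spread widely within both groups, and its log2 change was -2.92 ± 0.46 (SE, adjusted p = 0.000973). Oas1d (an oligoadenylate synthetase gene of a multicopy family) and Iigp1 (an interferon-induced GTPase) had 62 and 44 counts in all at T12 and 12 and 9 at T24. Oas1d lost its call without the first T12 (adjusted p = 0.0105), the first T24 (0.0126) or the second T24 library (0.01). Iigp1 lost it without the third T12 (0.0109) or any one T24 library (0.0138, 0.0165 and 0.0107).

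The features that rose most besides Hox genes had few reads at T12. Grifin, a lens galectin-related gene, had 3, 3 and 5 counts and then 79, 87 and 67 (ratio per depth 18.1, 95% counting interval 9.93 to 36.8). Hapln1, a link protein of the extracellular matrix, had 4, 1 and 4 and then 59, 38 and 33 (12.3, 6.30 to 27.6), and Kif12, a kinesin, 0, 1 and 1 and then 17, 36 and 15 (29, 7.74 to 245). Ambp, a precursor of plasma proteins made by the liver, had 0, 1 and 1 and then 30, 33 and 21 counts (35.9, 9.63 to 301), and ccdc198 had 1, 0 and 0 and then 15, 21 and 20 (47.8, 8.24 to 1923). These genes passed the filter on low counts through their T24 libraries, so that the separation of the groups follows from how they were chosen.

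A set of genes rose in the first 12 h and fell in the second. Of the 602 features that fell from 12 to 24 h, 136 had risen from 0 to 12 h, 141 had fallen there as well, 319 had done neither, and 6 were not tested there. The intervals share the T12 libraries, so a deviation of those libraries raises one change and lowers the other, and the counts are given as a description. In 51 of the 136 the T24 mean was below the T0 mean, and by T60 this held for 96 of them. Themis2, a signalling adaptor of immune cells, measured 0.948, 0.674 and 1.14 CPM at T0, 22.9, 23.5 and 25.99 CPM at T12, 6.79, 5.73 and 5.31 CPM at T24 and 1.61, 1.99 and 2.82 CPM at T60. Its T12 libraries stood above those of every other time, and it fell by 2.003 ± 0.11 (SE, adjusted p = 8.62e-07) after T12. Zan, a sperm membrane protein that binds the egg coat, measured 4.07, 3.37 and 4.57, then 20.8, 22.3 and 23.2, then 3.92, 4.304 and 3.75 and last 0.895, 1.36 and 0.846 CPM, and fell by 2.45 ± 0.10 (SE, adjusted p = 1.48e-07) after T12. Nphp4, a protein of the base of cilia, rose from 12.5 mean CPM at T0 to 62.9 and was back at 23.8 at T24, a log2 change of -1.39 ± 0.088 (SE, adjusted p = 2.42e-06). Grm2, a glutamate receptor, had means of 3.47, 7.13 and 1.02 CPM, and Cdk15, a kinase gene, 0.197, 2.83 and 0.457, with log2 changes of -2.77 ± 0.17 (SE, adjusted p = 2.42e-06) and -2.56 ± 0.35 (SE, adjusted p = 0.000425). Pecam1, an adhesion molecule of mESCs and endothelium, followed the same course at 99.5, 219, 138 and 16.1 CPM, with a log2 change of -0.67 ± 0.057 (SE, adjusted p = 1.71e-05) after T12.

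In the first 12 h, 7.24% of the features tested there rose and 4.04% fell, and from 24 to 60 h 19.8% rose and 15.9% fell. Of the 700 features that rose from 12 to 24 h, 243 had risen in the first 12 h too, 11 had fallen, 365 had done neither and 81 were too low to be tested there. From 24 to 60 h, 390 of the 699 tested there rose further and 75 fell, while 299 of 549 tested features that had fallen fell further and 41 rose, and this interval shares the T24 libraries. A direct test of the difference between the 12 to 24 h and the 0 to 12 h change called 1286 of 18600 features (6.91%). Of these 403 (2.17% of those tested) had a more positive and 883 (4.75%) a more negative change in the second interval, and 5663 had an unadjusted p below 0.05. Il6st and Mycn were among those with a more positive second change, by 0.89 ± 0.088 (SE, adjusted p = 8.44e-06) and 2.18 ± 0.17 (SE, adjusted p = 8.30e-07). Mycn, a Myc family gene of mESCs, measured 199, 215 and 188 CPM at T0, 32.2, 41.7 and 30.6 CPM at T12 and 24.9, 28.6 and 26.9 CPM at T24, so the larger part of its drop in mean level lay before T12.

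Most listed genes of the signalling pathways that pattern the embryo were not called, and those called moved in both directions. Over all features 3.75% rose and 3.22% fell, so a single call in lists this short says nothing about the list. Of 10 tested Nodal pathway genes (of 11) 4 rose and 0 fell, with a median log2 change of 0.070. Lefty2, a secreted Nodal inhibitor, measured 23.4, 30.96 and 23.8 CPM at T0, 33.5, 37.5 and 23.1 CPM at T12, 88.99, 87.96 and 88.2 CPM at T24 and 9.42, 5.61 and 6.39 CPM at T60. Its T24 libraries lay above those of every other time, and it rose by 1.495 ± 0.13 (SE, adjusted p = 1.57e-05) over the interval. Its near-identical neighbour Lefty1, with which it may share reads, measured 143, 184 and 116 CPM and then 308, 342 and 312 CPM, a rise of 1.12 ± 0.13 (SE, adjusted p = 0.000107). Smad3, which carries the Nodal signal into the nucleus, rose by 0.73 ± 0.08 (SE, adjusted p = 9.64e-05), while Smad2 and the ligand Gdf3 had log2 changes of 0.0056 ± 0.053 (SE, adjusted p = 0.955) and -0.25 ± 0.065 (SE, adjusted p = 0.0147).

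Of 16 FGF and ERK pathway genes 1 rose and 2 fell. Etv4, a target of FGF signalling, measured 118, 119 and 112 CPM and then 68.6, 64.1 and 66.1 CPM and fell by 0.81 ± 0.054 (SE, adjusted p = 3.41e-06). Fgf8, a ligand of the primitive streak that also stands in the mesoderm list, fell by 1.28 ± 0.19 (SE, adjusted p = 0.000696) from 2.87 mean CPM, and the receptor gene Fgfr3 rose by 0.78 ± 0.13 (SE, adjusted p = 0.0012). Etv5 and Fgfr1 had log2 changes of -0.42 ± 0.052 (SE, adjusted p = 0.000201) and 0.54 ± 0.047 (SE, adjusted p = 1.89e-05), both under the fold threshold, and without the first T24 library 2 genes of this list rose in place of 1. Of 14 Wnt pathway genes 1 rose and 2 fell. Dkk1, a secreted Wnt antagonist, measured 1.597, 0.904 and 0.445 CPM and then 5.54, 5.48 and 5.94 CPM. Every T24 library was above every T12 library, a log2 change of 2.397 ± 0.27 (SE, adjusted p = 0.000119), or 3.07 without the first T12 library. Notum, another antagonist, fell by 0.94 ± 0.16 (SE, adjusted p = 0.00148) and Tcf7l1, the repressor of Wnt targets in mESCs, fell by 0.64 ± 0.066 (SE, adjusted p = 6.47e-05). The Wnt receptor gene Fzd7 and the effector gene Tcf7 had log2 changes of -0.21 ± 0.057 (SE, adjusted p = 0.0207) and -0.0071 ± 0.053 (SE, adjusted p = 0.94), and the list held 2 rises without the third T12 library. With the replicate number as a block it also held 2.

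Of 12 BMP pathway genes 3 rose and 1 fell. Msx1, a homeobox target of BMP, measured 9.65, 11.5 and 9.46 CPM at T12 and 36.4, 38.2 and 42.3 CPM at T24, a rise of 1.94 ± 0.094 (SE, adjusted p = 6.10e-07), and its paralogue Msx2 rose by 0.84 ± 0.093 (SE, adjusted p = 9.96e-05). The ligands moved apart, since Bmp4 went from 11.7, 13.3 and 8.07 CPM to 4.81, 5.16 and 4.09 CPM and Bmp2 from 2.395, 1.21 and 2.12 CPM to 4.25, 4.52 and 5.01 CPM. Their log2 changes were -1.22 ± 0.17 (SE, adjusted p = 0.000503) and 1.22 ± 0.21 (SE, adjusted p = 0.0017), and at T60 Bmp4 was back at 17.8 mean CPM. Id1, an immediate BMP target, and Smad7, an inhibitor of the pathway, did not pass, at 0.20 ± 0.094 (SE, adjusted p = 0.145) and 0.031 ± 0.081 (SE, adjusted p = 0.815).

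Among the germ layers, endoderm had the most genes that rose. Of 17 tested endoderm genes (of 19) 10 rose and 0 fell, with a median log2 change of 1.07. Gata6, a primitive endoderm factor, measured 13.4, 12.5 and 12.5 CPM at T12 and 28.7, 27.4 and 35.1 CPM at T24, a rise of 1.24 ± 0.10 (SE, adjusted p = 1.21e-05) without overlap. Sox17, Gata4, Sox7 and Foxa2 rose at low levels, from means of 1.17, 1.94, 1.52 and 0.623 CPM to 3.68, 5.46, 4.29 and 2.07 CPM. Their log2 changes lay between 1.43 and 1.66, and the groups did not overlap for any of these genes. The matrix genes Sparc and Lamb1, which endoderm makes in large amounts but which other cells express too, had log2 changes of -0.20 ± 0.061 (SE, adjusted p = 0.0371) and 0.20 ± 0.062 (SE, adjusted p = 0.0381). In bulk RNA, more cells of a type and more RNA per cell cannot be told apart, here as in every list.

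The neural and mesodermal lists did not move together. Of 14 tested neural genes (of 22) 2 rose and 2 fell. Sox1, the first marker of neural commitment, measured 6.89, 8.68 and 6.62 CPM at T12 and 16.7, 17.5 and 17.5 CPM at T24, a rise of 1.24 ± 0.11 (SE, adjusted p = 1.68e-05), and Gli3, an effector of Hedgehog signalling, rose by 0.74 ± 0.069 (SE, adjusted p = 3.04e-05). Tubb3, a neuronal tubulin, fell by 0.72 ± 0.084 (SE, adjusted p = 0.000141), and Nes and Sox3 had log2 changes of 0.16 ± 0.08 (SE, adjusted p = 0.185) and -0.35 ± 0.085 (SE, adjusted p = 0.0116). Pax7, a dorsal neural and muscle factor, measured 1.13, 0.965 and 1.45 CPM and then 0.296, 0.569 and 0.0974 CPM. Its log2 change of -1.78 ± 0.42 (SE, adjusted p = 0.00959) lost its call without the first T12 (adjusted p = 0.029) or the third T12 library (0.0292) and without the first (0.044) or the third T24 library (0.0262), and was -2.43 without the second T24 library. Of 14 tested mesoderm and primitive streak genes (of 17) 1 rose, Foxc1, a factor of paraxial mesoderm (1.04 ± 0.18, adjusted p = 0.00163), and 1 fell, Fgf8. Cdx1, a posterior factor that RA induces, measured 53.3, 43.4 and 39.8 CPM and then 74.9, 62.1 and 60.9 CPM. Its log2 change of 0.53 ± 0.11 (SE, adjusted p = 0.00487) stayed under the fold threshold and passed without the first T12 (0.67) or the third T24 library (0.59). Cdx2 had a log2 change of 0.41 ± 0.14 (SE, adjusted p = 0.0481). The count of falls in this list was 2 without the third T12 or the first T24 library.

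Genes of trophoblast and fibroblasts, cell types that such cultures could also hold, were listed as well. Of 7 tested trophoblast genes (of 8) 1 rose, Tfap2a, a factor that also acts in neural crest and ectoderm, from 3.86, 2.65 and 4.51 CPM to 6.75, 8.61 and 9.06 CPM (1.13 ± 0.18, adjusted p = 0.00113). Tfap2c and Gata3 had log2 changes of -0.25 ± 0.072 (SE, adjusted p = 0.026) and 0.024 ± 0.077 (SE, adjusted p = 0.855), and 1 member fell without the second or the third T12 library. Of 6 tested fibroblast genes (of 7) 2 rose. Col1a2, a chain of type I collagen, measured 3.76, 5.12 and 3.62 CPM at T12 and 16.6, 17.6 and 20.5 CPM at T24, a rise of 2.15 ± 0.14 (SE, adjusted p = 2.58e-06). Dcn, which encodes decorin, had 20 counts in all at T12 and 70 at T24, and its call was lost without any one of the 6 libraries (adjusted p between 0.0132 and 0.0437). Col1a1, the other chain, and Pdgfrb had log2 changes of 0.39 ± 0.12 (SE, adjusted p = 0.0297) and 0.10 ± 0.08 (SE, adjusted p = 0.428).

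The sums over defining markers followed the same lines. The 7 pluripotency markers summed to 2536 to 2680 CPM at T12 and 1854 to 1917 CPM at T24, with 4 that fell and 0 that rose, so the markers of the labelled cell type were present at both times. The 6 endoderm markers summed to 25.3 to 41.0 CPM and then 64.0 to 85.4 CPM, and all 6 rose. The 6 neural markers summed to 136 to 167 CPM and then 148 to 158 CPM, with 1 that rose and 1 that fell. The 5 mesoderm markers lay at 11.4 to 12.5 CPM and then 11.99 to 13.2 CPM, and the 4 trophoblast markers at 38.0 to 44.2 CPM and then 34.7 to 37.3 CPM, and none of the 4 mesoderm and 3 trophoblast markers that were tested passed. The trophoblast sums did not overlap between the times. The 5 fibroblast markers summed to 57.3 to 71.4 CPM and then 86.6 to 94.8 CPM with 2 that rose, and Lum, a defining one, was at 0 in every T12 library. No marker was at 0 in all 6 libraries, and the part of these cell types in the results above was not tested.

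**Figure D4:**
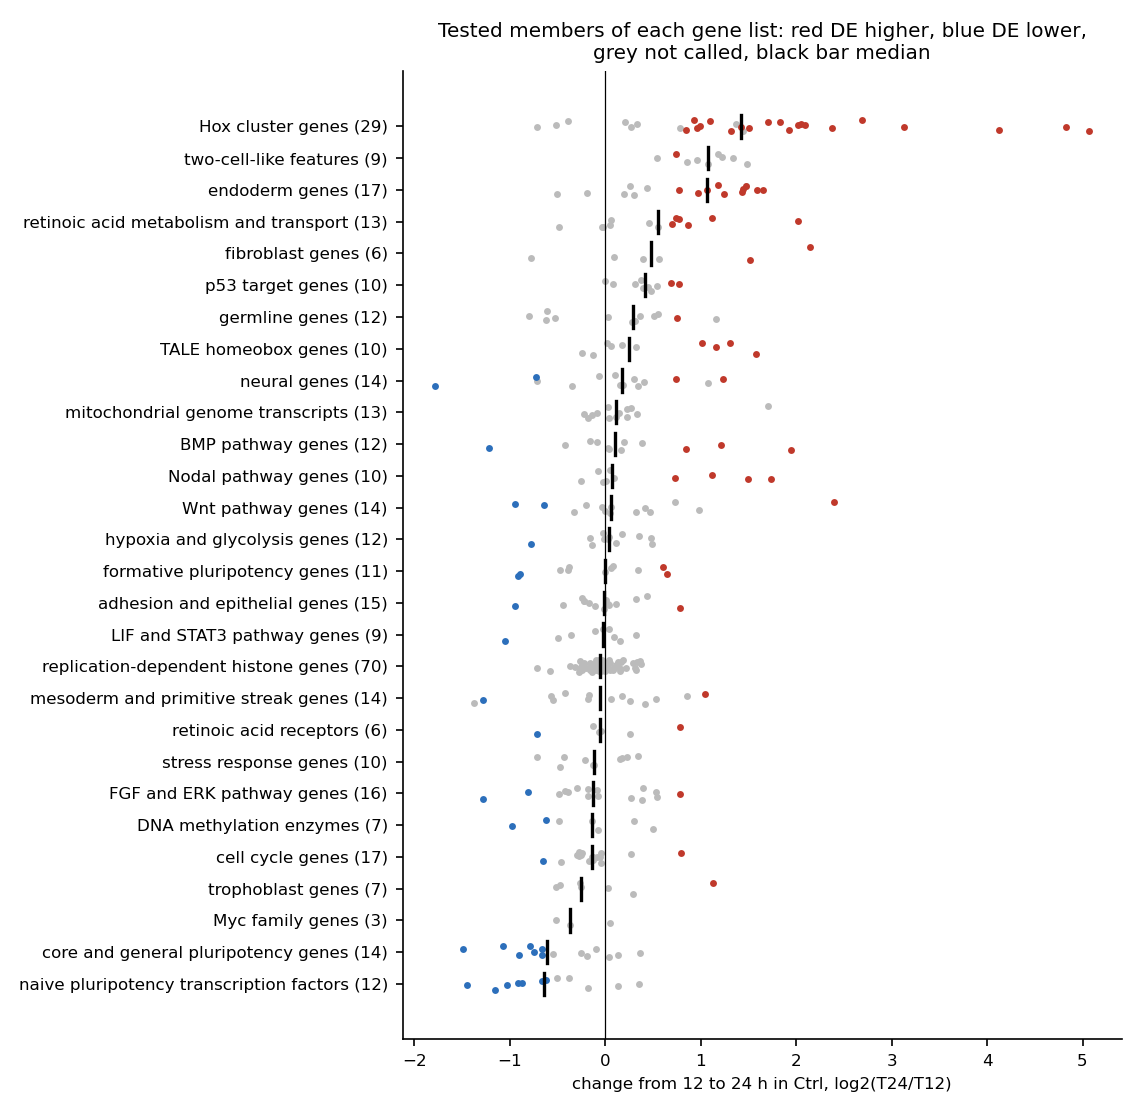
Log2 fold change from T12 to T24 in Ctrl cells (x axis) of every tested member of each list (y axis, number tested in parentheses), red where it rose, blue where it fell and grey otherwise, with the list's median as a black bar. Hox cluster genes (1.42), endoderm genes (1.07) and two-cell-like features (1.07) lie furthest to the right, and naive factors (-0.64) and core pluripotency genes (-0.61) furthest to the left.

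Classes of small noncoding RNA, looked at after their values were seen, are given by their counts. Of 39 tested snRNA genes, which encode RNAs of the spliceosome and are multicopy, 16 fell and 0 rose, with a median log2 change of -0.74. From 0 to 12 h, which shares the T12 libraries, 5 snRNA genes had risen and 0 had fallen, with a median of 0.59. At T24 32 of 39 were lower, against 9120 of 18679 over all features. Without the second T24 library 10 of the snRNA genes fell. In dPOLE4 cells 15 fell over the same interval, and in MCM2-2A cells 0 fell at a median of -0.77, and the difference was not tested as a class. Of 241 snoRNA genes, which guide modification of rRNA, 29 fell and 0 rose (median -0.13), while of 193 genes annotated as miRNA 8 rose and 5 fell, and of 30 of the mixed class misc_RNA, which holds the Y RNAs and 7S RNAs, 4 rose and 2 fell. Over all features 3.75% rose and 3.22% fell, and the miRNA counts lay near these shares. From 0 to 12 h, 5 snoRNA genes had risen and 2 had fallen, with a median of -0.17. Rny1, a Y RNA, measured 7.75, 5.85 and 5.68 CPM at T12 and 1.02, 0.889 and 1.36 CPM at T24, a log2 change of -2.596 ± 0.20 (SE, adjusted p = 9.59e-06). The genes that follow in this paragraph were named after their values were seen. Snora73b, a snoRNA, measured 154, 176 and 161 CPM and then 68.7, 63.5 and 65.7 CPM (-1.31 ± 0.062, adjusted p = 5.94e-07). At T0, T12 and T24 its means were 125, 164 and 65.9 CPM. Those of Snord15a were 4.41, 10.5 and 2.28 CPM, and those of Rny3 were 1.41, 3.36 and 1.02 CPM. From T12 to T24 Snord15a fell by 2.195 ± 0.17 (SE, adjusted p = 1.02e-05) and Rny3 fell by 1.76 ± 0.29 (SE, adjusted p = 0.00147). Rn7s1, a 7S RNA of the signal recognition particle whose reads may be shared with its copies, went the other way, from 1621, 1645 and 1144 CPM to 2106, 2676 and 2177 CPM (0.66 ± 0.13, adjusted p = 0.00363), and its copy Rn7s2 had a log2 change of 0.039 ± 0.085 (SE, adjusted p = 0.78). Rn7s1 lost its call without the third T12 library (0.51, under the fold threshold), the second T24 library (adjusted p = 0.0172) or the third T24 library (adjusted p = 0.0103). Rn7sk, which restrains transcription elongation, measured 4765, 4896 and 4977 CPM and then 5011, 5447 and 4907 CPM (0.074 ± 0.053, adjusted p = 0.346) and Rmrp, an RNA of an endoribonuclease, had a log2 change of -0.21 ± 0.057 (SE, adjusted p = 0.0198). Gm23935, annotated as a miRNA gene and read with many copies, held 2.5%, 3.98% and 3.23% of all counts at T12. At T24 it held 1.39%, 1.21% and 1.3%, and it fell by 1.38 ± 0.14 (SE, adjusted p = 4.42e-05). Its T0 libraries spread widely, at 24940, 14390 and 50490 CPM, against means of 32720 CPM at T12 and 12531 CPM at T24. It was not called in dPOLE4 cells (log2 change -0.86) and fell in MCM2-2A cells (-1.27). Libraries were made from total RNA after rRNA depletion, and how their recovery of short RNAs varied between times was not tested.

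Repeats as a whole held 7.82% ± 0.166 of the counts at T12 and 7.57% ± 0.311 at T24 (SD, n = 3 each). The difference of -0.246 percentage points was within the spread of the libraries (exact permutation test, two-sided p = 0.4, of which 0.1 is the smallest that 3 against 3 allows). It was -0.0784 without the third T24 library, -0.386 without the second T24 library and -0.163 without the second T12 library. LTR elements held 1.73% ± 0.164 and then 1.91% ± 0.0521 (exact p = 0.1), and LINEs 0.870% ± 0.0840 and then 0.938% ± 0.0262 (exact p = 0.2). The SINE subfamilies B2_Mm1a and B2_Mm1t were the repeats with high counts that fell, 2 of 35 SINE subfamilies. B2_Mm1a measured 3671, 6909 and 4376 CPM at T12 and 2018, 2078 and 1815 CPM at T24, and B2_Mm1t 2258, 4263 and 2749 and then 1295, 1354 and 1212 CPM. The second T12 library was the highest for both, and their log2 changes of -1.34 ± 0.18 (SE, adjusted p = 0.000369) and -1.26 ± 0.18 (SE, adjusted p = 0.000495) were -1.03 and -0.96 without it. B2_Mm2, a related subfamily, had a log2 change of -0.39 ± 0.053 (SE, adjusted p = 0.000381) and B3 of 0.072 ± 0.063 (SE, adjusted p = 0.443). B2 elements are short repeats that RNA polymerase III transcribes, but many copies lie within genes and are read with them, and these sources cannot be told apart in counts per subfamily.

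Of 532 tested LTR subfamilies (of 678) 4 rose and 6 fell, and of 138 LINE subfamilies (of 157) 1 rose and 1 fell. MMERVK9C_I-int, the internal part of an endogenous retrovirus, measured 153, 128 and 180.5 CPM and then 90.3, 90.7 and 98.98 CPM and fell by 0.72 ± 0.10 (SE, adjusted p = 0.000496). ERVB4_2-I_MM-int went the other way, from 18.5, 13.4 and 19.98 CPM to 34.99, 34.6 and 38.1 CPM (1.05 ± 0.12, adjusted p = 9.98e-05). X7B_LINE fell by 2.26 ± 0.29 (SE, adjusted p = 0.000271), while the abundant L1Md_A and L1Md_T and the early transposons MMETn-int and ETnERV-int had log2 changes of 0.043, -0.055, 0.05 and -0.025, none of which passed. The LTR counts were small and depended on single libraries. The rises numbered 1 without the first or the third T24 library, and the falls numbered 1 without the first T12 or the third T24 library and 2 without the third T12, the first T24 or the second T24 library. Without the third T12 library or any one T24 library, and with the replicate number as a block, 0 LINE subfamilies rose, and without the second T12 library this was also 0.

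Two-cell-like features, which mark a rare state of mESC cultures, were all higher at T24 (against 9559 of 18679 over all features), but few passed. Of 9 tested (of 11) 1 rose in the unblocked test, MERVL-int, the internal part of the retrovirus that is active in that state, with a median log2 change of 1.07 over the 9. MERVL-int measured 798, 523 and 771 CPM at T12 and 1433, 913 and 1136 CPM at T24, a log2 change of 0.74 ± 0.17 (SE, adjusted p = 0.00859). Zscan4c, of a cluster of near-identical genes, measured 7.05, 1.27 and 4.01 and then 18.4, 5.83 and 8.86 CPM, with overlapping groups (1.33 ± 0.47, adjusted p = 0.0603), and the LTR MT2_Mm had a log2 change of 0.85 ± 0.24 (SE, adjusted p = 0.0236). The spread lay between replicate numbers, the second being the lowest for Zscan4c at both times. With the replicate number as a block 8 of the 9 rose, Zscan4c by 1.44 (adjusted p = 1.23e-06) and MT2_Mm by 0.89 (1.82e-07). MERVL-int lost its call in the unblocked test without the first T12 library (adjusted p = 0.0109), none of the list passed without the second or the third T12 library or without the first or the third T24 library, and DESeq2 called 0. At T60 MERVL-int had a mean of 4804 CPM.

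Other lists held few changes. Of 7 genes of DNA methylation enzymes 2 fell and 0 rose. Tet1, which oxidizes methylcytosine, measured 348, 300.0 and 365 CPM at T12 and 177, 174 and 161 CPM at T24, a log2 change of -0.98 ± 0.074 (SE, adjusted p = 7.36e-06). Dnmt3a, a de novo methyltransferase, had risen in the first 12 h and fell by 0.63 ± 0.063 (SE, adjusted p = 5.36e-05). Without the second T12 library its log2 change was -0.55, under the fold threshold (adjusted p = 1.53e-06). Uhrf1 and Dnmt1, which maintain methylation, had log2 changes of -0.49 ± 0.054 (SE, adjusted p = 9.58e-05) and -0.14 ± 0.052 (SE, adjusted p = 0.0741). Of 17 cell cycle genes 1 rose and 1 fell (3.75% and 3.22% over all features). At T24 15 of them were lower, against 9120 of 18679 over all features. The D-type cyclins moved apart, as Ccnd2 rose by 0.79 ± 0.089 (SE, adjusted p = 0.000106) and Ccnd1 fell by 0.65 ± 0.052 (SE, adjusted p = 1.05e-05), whereas Mcm2 and Top2a had log2 changes of -0.27 ± 0.051 (SE, adjusted p = 0.00285) and -0.25 ± 0.056 (SE, adjusted p = 0.00685). Of 10 p53 target genes 2 rose, Phlda3 by 0.77 ± 0.069 (SE, adjusted p = 2.45e-05) and Bbc3, a pro-apoptotic gene, by 0.68 ± 0.10 (SE, adjusted p = 0.000533). All 10 were higher at T24, against 9559 of 18679 over all features. For Bax and Mdm2, named after their values were seen, the log2 changes were only 0.0012 and 0.079. Trp53inp1, a further target, had a log2 change of 0.54 ± 0.12 (SE, adjusted p = 0.00566) and passed without the first (adjusted p = 0.00602) or the third T12 (0.00583) or the second T24 library (0.00754). Ccng1 had a log2 change of 0.44 ± 0.10 (SE, adjusted p = 0.008).

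None of 3 Myc family genes passed with edgeR or DESeq2 (2 had an unadjusted p below 0.05), with Myc at -0.52 ± 0.084 (SE, adjusted p = 0.00124) and Mycn at -0.37 ± 0.11 (SE, adjusted p = 0.0292) on the log2 scale, and Myc passed without the third T24 library (-0.60). Of 15 adhesion and epithelial genes 1 fell, Cdh3, which encodes P-cadherin (-0.94 ± 0.11, adjusted p = 0.00012), and 1 rose, Zeb2, a repressor of epithelial genes (0.78 ± 0.14, adjusted p = 0.002, lost without the third T24 library at adjusted p = 0.0111), with 2 rises without the first T12 library. Cdh1, the E-cadherin gene, and Fn1 had log2 changes of -0.44 ± 0.049 (SE, adjusted p = 9.98e-05) and -0.25 ± 0.055 (SE, adjusted p = 0.00739). Of 12 hypoxia and glycolysis genes 1 fell, Pdk1, which restrains pyruvate dehydrogenase (-0.78 ± 0.068, adjusted p = 1.77e-05), while the glucose transporter gene Slc2a3 had 0.49 ± 0.073 (SE, adjusted p = 0.000683) and Aldoa -0.019 ± 0.068 (SE, adjusted p = 0.868). Of 12 germline genes 1 rose, Taf7l (0.75 ± 0.16, adjusted p = 0.0053), and it lost its call without any one library but the second at T12 (adjusted p between 0.0129 and 0.0258). Dazl and Ddx4 had log2 changes of 0.56 ± 0.16 (SE, adjusted p = 0.0256) and 0.28 ± 0.12 (SE, adjusted p = 0.127), and Dazl passed without the third T12 library (0.79, adjusted p = 0.000672). Germline genes that fell numbered 1 without the first T12 library, 2 without the second, and 2 with the replicate block. Of 70 replication-dependent histone genes 0 changed with edgeR or DESeq2 (median -0.053, 21 at an unadjusted p below 0.05, and 1 called with the replicate block), with Hist1h1a and Hist1h1d at -0.10 ± 0.054 (SE, adjusted p = 0.204) and -0.16 ± 0.065 (SE, adjusted p = 0.101). Of 10 stress response genes 0 changed with either tool (6 at an unadjusted p below 0.05, and 1 called with the block), with Hspa5 at 0.22 ± 0.053 (SE, adjusted p = 0.0106) and Asns at 0.16 ± 0.06 (SE, adjusted p = 0.081), and of 13 mitochondrial transcripts 0 changed with either tool (1 at an unadjusted p below 0.05), with mt-Co1 and mt-Nd1 at 0.033 ± 0.14 (SE, adjusted p = 0.895) and 0.044 ± 0.18 (SE, adjusted p = 0.888).

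The same interval in other cells gave changes of the same kind, from libraries that Ctrl cells do not share. The study's methods state that the cell lines were assayed together, so these were not separate experiments. How many of all tested features moved in the same direction in both was not counted. Among the 700 features that rose in Ctrl cells, 682 of 684 tested in dPOLE4 cells were higher at T24 there (median log2 change 0.83) and 436 rose. In MCM2-2A cells 650 of 659 were higher (median 0.83) and 396 rose. Among the 602 that fell, 595 of 595 tested were lower in dPOLE4 cells (median -0.85, 404 fell) and 547 of 565 in MCM2-2A cells (median -0.78, 316 fell). Tested on its own, the interval gave calls for 1163 of 18454 features in dPOLE4 cells (6.3%) and 1570 of 17773 in MCM2-2A cells (8.83%), with 3.39% that rose and 2.92% that fell in the former and 5.52% and 3.31% in the latter.

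**Figure D5:**
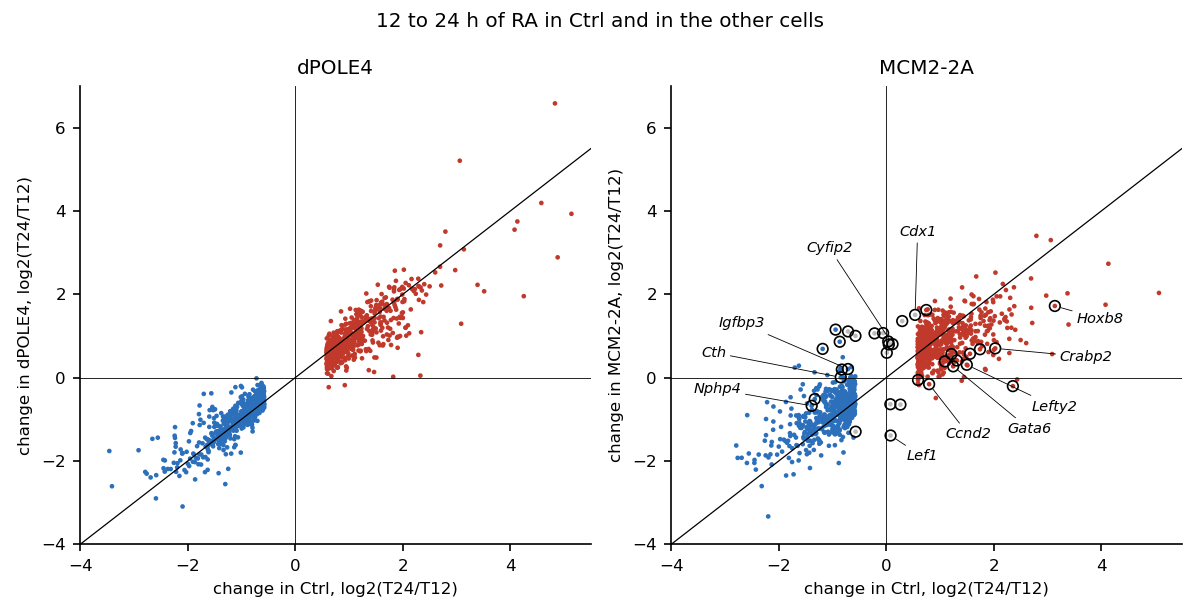
Log2 fold change from T12 to T24 in dPOLE4 cells (left) and MCM2-2A cells (right) on the y axis against that in Ctrl cells on the x axis, for features that rose (red) or fell (blue) in Ctrl cells. The right panel also holds, in grey, features that were not called in Ctrl cells but whose change differed between MCM2-2A and Ctrl cells. Points on the diagonal changed equally, circles mark features whose change differed between MCM2-2A and Ctrl cells, and Crabp2, Hoxb8 and Lefty2 lie below the diagonal there.

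A direct test of whether the 12 to 24 h change differed between dPOLE4 and Ctrl cells called 0 of 19281 features with edgeR, with 812 at an unadjusted p below 0.05, and 0 with DESeq2, with 525 at an unadjusted p below 0.05. Without the filter on low counts edgeR called 16. With the replicate number as a block edgeR called 0, with 1713 at an unadjusted p below 0.05. The median standard error of the differences was 0.166 on the log2 scale in the unblocked fit. A test that misses its threshold does not show equal changes. Crabp2 changed by 1.83 on the log2 scale in dPOLE4 and 2.02 in Ctrl cells, Hoxb8 by 3.08 and 3.13, and Esrrb by -1.07 and -1.03. Mest, named after its values were seen, lay further apart at 1.19 and 1.62, a difference of -0.43 ± 0.11 (SE, adjusted p = 0.909). These genes are examples, and how many lay as close or as far apart was not counted.

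Between MCM2-2A and Ctrl cells the change differed for 36 of 19050 features (0.189%), 19 with a more positive and 17 with a more negative change in MCM2-2A cells, and 2570 had an unadjusted p below 0.05. DESeq2 called 99, and edgeR called 22 without the first Ctrl T12 library, 21 without the third Ctrl T24 library and 20 without the third MCM2-2A T24 library. These lines were 1 clone each, so that the MCM2 change and the clone cannot be told apart. Mcm2 RNA measured 269.5, 270.0 and 305 CPM in MCM2-2A cells at T12 and 494, 537 and 502 CPM in Ctrl cells at T12 (levels in this paragraph and the next are scaled over the 18 libraries of the 3 cell types). Pole4 RNA was lower in MCM2-2A cells as well, at 38.1, 30.42 and 33.84 CPM at T12, against 58.78, 55.98 and 58.22 CPM in Ctrl cells. Several of the genes that rose in Ctrl cells rose less in MCM2-2A cells. Crabp2 measured 18.3, 23.9 and 21.1 CPM at T12 and 78.8, 89.9 and 88.9 CPM at T24 in Ctrl cells. In MCM2-2A cells it measured 22.8, 24.8 and 27.8 CPM and then 37.1, 45.96 and 39.6 CPM, a difference of changes of -1.31 ± 0.14 (SE, adjusted p = 0.000341). Hoxb8 went from 10.1, 8.16 and 12.4 CPM to 34.1, 32.3 and 34.6 CPM in MCM2-2A cells, which started above the Ctrl libraries at 2.54, 2.62 and 2.999 CPM. The difference of changes was -1.404 ± 0.17 (SE, adjusted p = 0.000933).

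Lefty2 likewise stood higher at T12 in MCM2-2A cells, at 145, 129.5 and 154 CPM against 34.1, 37.9 and 23.5 CPM in Ctrl cells. At T24 it measured 169, 192 and 172 CPM and 91.6, 90.3 and 90.6 CPM, a difference of changes of -1.18 ± 0.16 (SE, adjusted p = 0.00141). Gata6 had a difference of -0.96 ± 0.13 (SE, adjusted p = 0.00143) and Ccnd2 of -0.94 ± 0.12 (SE, adjusted p = 0.00128). Lef1, a Wnt effector and formative gene, did not change in Ctrl cells, at 19.5, 17.2 and 16.4 CPM and then 19.97, 18.8 and 17.96 CPM. In MCM2-2A cells it measured 12.3, 11.6 and 13.6 CPM and then 4.35, 5.54 and 4.24 CPM, a difference of -1.45 ± 0.15 (SE, adjusted p = 0.000341). Igfbp3, a binding protein of insulin-like growth factors, fell in Ctrl cells from 117, 107 and 106 CPM to 65.4, 68.2 and 70.3 CPM, and it measured 20.4, 20.5 and 20.3 CPM and then 21.8, 25.1 and 24.1 CPM in MCM2-2A cells (0.93 ± 0.092 (SE, adjusted p = 0.000162)). Cth, an enzyme of cysteine synthesis, fell by 0.85 ± 0.062 (SE, adjusted p = 6.10e-06) in Ctrl cells and had a difference of changes of 0.87 ± 0.083 (SE, adjusted p = 0.000162).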

How the data were processed

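RNA was rRNA-depleted and sequenced from strand-specific libraries of total RNA. The authors trimmed reads with cutadapt 4.2, aligned them with STAR to mm10 keeping multiple alignments, and counted them per gene (GENCODE M25) and repeat subfamily with TEcount. The deposited values are raw counts of 56633 features (55487 genes and 1146 repeat subfamilies), neither normalized nor pooled, and reads with several alignments were shared among copies. Symbols, positions and gene types came from GENCODE M21 of the same build, which matched 55141 genes.

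Counts were analysed with edgeR 4.0.16 in R 4.3.3 (limma 3.58.1), while the study's methods name DESeq2 (here 1.42.0, an alternative). Low features of the 2 groups compared were removed by filterByExpr at a minimum count of 10 and a total of 15, and libraries were scaled by TMM over genes and repeats. The quasi-likelihood F test was used with the thresholds of the study (adjusted p 0.01, log2 fold change 0.58). SE is the size of the log2 fold change divided by the square root of F. Differences of changes were tested as contrasts of 4 groups (other cells) or 3 groups (intervals). Total counts per library set the precision, and p-values cover the spread between replicate cultures. Counting intervals are exact 95% intervals of ratios of summed counts and cover counting error only.

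Replicate numbers paired the libraries, since deviations from the group means correlated between T12 and T24 libraries of the same number (r = 0.148, 0.249 and 0.174) and not between others (r from -0.171 to 0.0216). The fit without the block is given, and the blocked value where it changed a call.

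The features named are Pole4 and Mcm2, the 12 rising and the 12 falling genes with the largest changes, up to 6 changed and 2 abundant unchanged members of each of 31 lists, 3 repeats in each direction, and the 5 genes with the smallest adjusted p of each difference. The 12 rising and 12 falling genes were taken among those whose T12 and T24 libraries did not overlap. The interval, its features and these lists were chosen with earlier results of these data known. Alternatives were DESeq2, its size factors within edgeR, TMM from genes only, the replicate number as a block, no filter, a filter of 10 counts per library, no fold threshold, glmTreat (1.5-fold), all time points in 1 fit, and each library left out. The procedure was tested on simulated data. Some features that the rule names are not reported here. Features outside this rule are said to be so where they are named.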

Additional observations from a re-analysis of the deposited data

Results flagged for a closer look

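The change from 12 to 24 h differed between cell lines or intervals for the following features, by a test of the difference itself. Between MCM2-2A and Ctrl cells 36 of 19050 features differed, and between the 12 to 24 h and the 0 to 12 h change in Ctrl cells 1286 of 18600 differed.

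For the genes named by rule, the change in MCM2-2A minus that in Ctrl cells was more positive for Igfbp3 (0.93 on the log2 scale), Cth (0.87), Cyfip2, which links cell signals to actin (0.70), Cdx1 (0.98) and Nphp4 (0.72). It was more negative for Crabp2 (-1.31), Lef1 (-1.45), Hoxb8 (-1.40), Ccnd2 (-0.94), Lefty2 (-1.18), Gata6 (-0.96) and Ambp (-5.11). Ambp rests on 0, 1 and 1 counts in the Ctrl libraries at T12, so that the size of its difference is not determined. Cdx1 measured 54.2, 43.9 and 40.5 CPM at T12 and 77.1, 63.8 and 62.5 CPM at T24 in Ctrl cells and 47.1, 41.1 and 56.3 CPM and then 133, 135 and 143 CPM in MCM2-2A cells.

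Of these calls, that of Cdx1 was lost without any 1 of 8 of the 12 libraries (adjusted p from 0.0156 to 0.0269), and that of Nphp4 without any 1 of 9 (0.0102 to 0.0374) and with the replicate number as a block (0.0114). The call of Ambp was lost without any 1 of 10 (0.0104 to 0.032) and with the block (0.0112).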

How the results depend on the processing

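The 700 rises and 602 falls became 660 and 589 with DESeq2 (630 and 563 of them shared), 695 and 611 with its size factors, 705 and 593 with TMM factors from genes only, 983 and 797 with no filter, 655 and 556 with the stricter one, and 779 and 649 with all time points fitted together. They numbered 1260 and 1339 with no fold threshold and 153 and 149 with glmTreat against a 1.5-fold change, by construction of these thresholds. Without 1 library at a time they lay between 498 and 651 and between 448 and 575. With the replicate number as a block they were 868 and 712, of which 690 and 600 were shared. Of the named features, MT2_Mm (adjusted p = 1.82e-07) and Zscan4c (1.23e-06) gained a call from 12 to 24 h under the block and L1MEb (0.0101) and ERVB3_1-LTR_MM (0.0101) lost theirs, and in the MCM2-2A difference Nphp4 and Ambp lost theirs. The block gave 39 features for the MCM2-2A difference, 0 for the dPOLE4 difference and 1583 for the difference of intervals. The MCM2-2A difference was 99 with DESeq2, 178 with no filter, and between 20 and 42 without 1 library at a time. The dPOLE4 difference was 16 with no filter, and the difference of intervals lay between 1000 and 1203 without 1 library at a time. The cause of these shifts was not tested. Features that did not pass changed sign when 1 library was left out, with log2 changes from -0.089 to 0.040 for Rxrb, -0.13 to 0.060 for Cyp26a1, -0.0080 to 0.13 for Rdh10, -0.031 to 0.091 for Pbx2, -0.036 to 0.057 for Gata3, -0.028 to 0.020 for Smad2, -0.034 to 0.0090 for Tcf7, -0.039 to 0.12 for Smad7, -0.087 to 0.027 for Aldoa, -0.14 to 0.18 for mt-Co1, -0.16 to 0.28 for mt-Nd1, -0.045 to 0.12 for L1Md_A, -0.15 to 0.023 for L1Md_T, -0.11 to 0.17 for MMETn-int and -0.045 to 0.15 for Rn7s2. The snRNA falls numbered 12 with DESeq2 and 5 with glmTreat, and the snoRNA falls 28 and 10. Over all alternatives, named features kept their direction and side of the threshold in 3615 cases, lost a call in 194, gained one in 32 and changed sign in 26. Depth limits genes with few counts at T12, such as Hoxc6, Hoxc8 and Ambp, whose fold is known only within wide counting intervals.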

Other observations

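H19, Mest and Peg10 are named after their values were seen, each of them known as imprinted, and imprinted genes as a group were not counted or tested. H19, a maternally expressed noncoding RNA, measured 263, 256 and 243 CPM at T12 and 727, 749.7 and 757 CPM at T24, a rise of 1.55 ± 0.051 (SE, adjusted p = 5.57e-08). Mest, a paternally expressed gene of mesoderm, measured 259, 246 and 288 CPM and then 728, 788 and 914 CPM, a rise of 1.62 ± 0.086 (SE, adjusted p = 8.62e-07). Peg10, a retrotransposon-derived gene of placenta, went from 1359, 1093 and 1306 CPM to 1977, 1995 and 2149 CPM, a rise of 0.71 ± 0.077 (SE, adjusted p = 8.72e-05). In all of them every T24 library lay above every T12 library. H19 reached a mean of 11013 CPM at T60, and its change from 12 to 24 h differed between MCM2-2A and Ctrl cells by -0.97 ± 0.13 (SE, adjusted p = 0.00174).

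Cyp1b1, a cytochrome enzyme that can make RA from retinol, was also named after its values were seen. It measured 1.46, 1.93 and 1.84 CPM at T12 and 6.46, 9.71 and 10.1 CPM at T24 in Ctrl cells, a rise of 2.35 ± 0.21 (SE, adjusted p = 2.21e-05). The change in MCM2-2A cells differed from that by -2.55 ± 0.42 (SE, adjusted p = 0.00743).

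The share of changed features varied by chromosome. On chromosome 6, which holds the Hoxa cluster, 57 of 847 tested genes rose (6.73%), and on chromosome 11, which holds the Hoxb cluster, 79 of 1454 rose (5.43%), against 3.75% of all features, repeats included. On chromosome 17, 18 of 874 rose (2.06%) and 41 fell (4.69%). On the X chromosome 38 of 626 rose (6.07%) and 11 fell (1.76%). These shares are descriptions without a test, and the chromosomes were chosen after their values were seen.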
